A study of Mus musculus with 11 samples.

Results

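The Hox cluster genes were taken as every row of the deposited gene table whose symbol was Hox, a cluster letter from a to d and a paralog number. This gave 39 of the 21684 genes, with 11 members of the Hoxa cluster on chromosome 6, 10 of Hoxb on chromosome 11, 9 of Hoxc on chromosome 15 and 9 of Hoxd on chromosome 2. RNA was sequenced from cells of NIH/3T3, a fibroblast line established from mouse embryos, to follow the genes governed by Xap5, Nono and Sox5 while primary cilia form. The 4 groups were WT cells (2 libraries) and the Xap5 KO, Nono KO and Sox5 KO lines (3 libraries each), and cells of every group, WT included, had spent 24 h without serum before RNA extraction. The gene labelled Xap5 has the mouse symbol Fam50a, which the labels do not say. The labels name no clones so a difference between a knockout and WT cannot be told apart from a difference between cell lines, and p-values measure the spread between libraries, which may be technical.

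Hox genes encode homeodomain transcription factors that tell cells where they lie along the body axis. Within each cluster the genes stand in the order of their domains, so that low paralog numbers are used from anterior levels, such as the hindbrain and neck, and high numbers mainly toward the posterior of the trunk, the tail and the distal limb. Fibroblasts kept in culture are known to hold on to a Hox pattern that reflects the site they came from, maintained with the opposing Polycomb and Trithorax chromatin complexes.

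Depth ran from 30205878 to 43498383 counts per library, and a count of 3, taken as the floor, corresponded to 0.0681 to 0.102 CPM (depth-scaled counts, on TMM-scaled library sizes). All 11 fibroblast markers examined were counted, with a summed level of 24662 to 24799 CPM in WT, 18868 to 20201 in Xap5 KO, 49482 to 54221 in Nono KO and 20923 to 21325 in Sox5 KO. Called higher and lower were 3 and 5 of them in Xap5 KO, 8 and 0 in Nono KO, and 7 and 3 in Sox5 KO. That was 72.7%, 72.7% and 90.9%, against 45.5%, 48.6% and 60.9% of all tested genes. Their median log2 fold changes were -0.18, 1.17 and 0.61, so in Sox5 KO the sum and the median went different ways. Markers of 6 other lineages summed to at most 11.6 CPM each in any library, and Krt8, Krt18, Cd3e, Sox2, Myf5, Myod1 and Pou5f1 were at 0 throughout. Some of these low markers moved with the groups. Of 4 skeletal muscle markers 1 was tested, Des, and it was higher in all 3 knockouts, with a summed level of 0 to 0.204 CPM for WT, 1.78 to 3.86 CPM for Xap5 KO, 0.974 to 1.16 CPM for Nono KO and 1.48 to 2.17 CPM for Sox5 KO. Of the 3 neural markers tested (5 listed), 2 were lower in Xap5 KO, 1 in Nono KO and all 3 in Sox5 KO, and their list's summed level was 1.49 to 2.72 CPM for WT, 0.618 to 1.24 CPM for Xap5 KO, 0.773 to 2.58 CPM for Nono KO and 0 to 0.0678 CPM for Sox5 KO. Immune markers summed to 2.56 to 2.72 CPM in WT, 3.94 to 5.28 CPM in Xap5 KO, 7.75 to 11.6 CPM in Nono KO and 2.58 to 3.96 CPM in Sox5 KO, and 1 of 3 tested, Ptprc, was higher in Nono KO and lower in Sox5 KO. Endothelial markers, of which 1 of 2 tested (Tek) was higher in Nono KO, summed to 0.744 to 0.772 CPM in WT and 1.41 to 2.79 CPM in Nono KO. The 1 tested epithelial marker was not called, and no pluripotent marker passed the filter. The part of these markers, and of the fibroblast markers, in the Hox differences was not tested. Each targeted gene was lower in its own line than in either WT library, with log2 fold changes of -3.04 for Fam50a, -3.47 for Nono and -1.83 for Sox5. Sox5 RNA was also lower in the Xap5 KO (-1.80) and Nono KO (-2.62) libraries, so low Sox5 RNA did not tell the Sox5 KO libraries from the other knockouts.

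Silent members lay at both ends of the clusters and were more numerous at the posterior ends. Of the 39 members, 10 had 0 counts in all 11 libraries: Hoxa11, Hoxa13, Hoxb1, Hoxb13, Hoxc10, Hoxc12, Hoxc13, Hoxd1, Hoxd11 and Hoxd12. For each of these the limit that a count of 0 allows is the floor given above, which covers counting error only. If read mates were counted separately, which the sources used here do not settle, that limit would be higher. Among all genes of the table, 5060 (23.3%) were at 0 everywhere. The silent members included Hoxa11, which patterns the forearm, Hoxb13 of the tail bud and prostate, Hoxc13 of hair and nails, and Hoxb1, the hindbrain gene of the anterior end. By paralog number, 8 of the 16 posterior members (numbers 9 to 13) were silent, as were 2 of the 8 anterior members (1 to 3) and none of the 15 central members (4 to 8).

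A further 7 members were detected in some libraries but stayed below the expression filter. Hoxb2 reached 2 counts in 1 Nono KO library and 0 elsewhere. Hoxa9 had 6 and 16 counts in WT, 4, 0 and 0 in Xap5 KO, 0, 2 and 0 in Nono KO and 0, 0 and 0 in Sox5 KO. Hoxb4 was counted only in Nono KO, at 23, 2 and 2 counts, and Hoxb7 only in WT, at 16 and 0 counts. Hoxb8 stayed between 0 and 5 counts, and Hoxc11 between 0 and 10. Hoxd13, a gene of digit formation, had 10 counts in Nono KO replicate 2 and 0 in the other 10 libraries. The Hoxc11 maximum and the only Nono KO counts of Hoxa9 were in that same library. It held counts of 7 posterior members, against 3 and 2 in Nono KO replicates 1 and 3. Several of these signals thus stood in single libraries, and none of the 7 was tested. The remaining 22 members passed the filter, and 14 of them had at least 10 counts in every library.

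**Figure D1:**
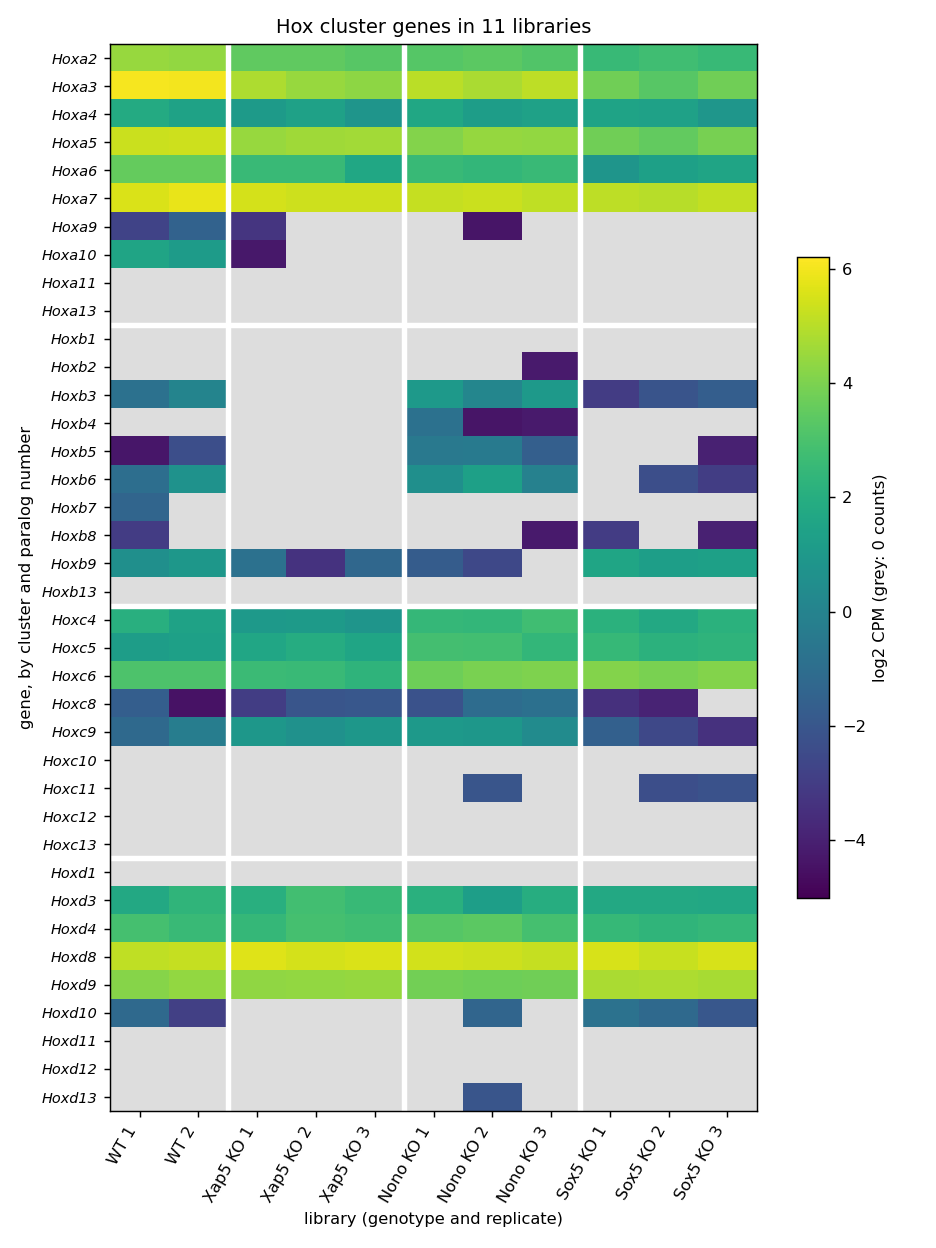
Level of the Hox cluster genes reported here (rows, by cluster and paralog number) in the 11 libraries (columns, by genotype and replicate), as log2 CPM in colour, with grey for 0 counts. Hoxa2 to Hoxa7, Hoxc4 to Hoxc6 and Hoxd3, Hoxd4, Hoxd8 and Hoxd9 were counted in every library, while the 10 silent genes are grey rows, most of them at posterior paralog numbers.

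Levels of different genes were compared as CPM per kilobase of exon, with lengths from the GENCODE M21 annotation. In WT the highest was Hoxa5, a gene of the lung and the cervical and upper thoracic skeleton, at 21.2 CPM per kilobase (mean of 2 libraries, 20.9 to 21.5). Hoxa7 followed at 18.3, Hoxa6 at 13.2, Hoxd8 at 13.2, Hoxa2 at 12.0, Hoxa3 at 10.8, Hoxd9 at 9.13 and Hoxc6 at 3.48 CPM per kilobase. The WT libraries of Hoxa6 and Hoxd8 overlapped on this scale, while the other neighbours among these 8 did not. With the longest transcript as length, Hoxa7 ranked first and Hoxa3 moved from rank 6 to rank 2, and the 8 genes were the same. In every knockout Hoxd8 ranked first, at 17.3 CPM per kilobase in Xap5 KO, 14.7 in Nono KO (overlapping Hoxa7) and 15.7 in Sox5 KO, and Hoxa7 ranked first again when the longest transcript was used. No member of the Hoxb cluster was among the 13 highest in any group.

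The 250 bases before the transcription start are shown for 3 Hoxa genes that fell in all knockouts and for Hoxd8, which did not fall in any. The windows come from RefSeq on GRCm38.p6 and are written 5′ to 3′ on the strand of the gene. They lie at chr6:52204588-52204837 (minus strand), chr6:52208673-52208922 (minus), chr6:52234940-52235189 (minus, 1 of 2 entries for Hoxa10) and chr2:74704365-74704614 (plus). Capitals mark matches on either strand to the TATA box TATAAA, the CCAAT box CCAAT or the GC box GGGCGG, and matches that touch or overlap run together.
Hoxa5: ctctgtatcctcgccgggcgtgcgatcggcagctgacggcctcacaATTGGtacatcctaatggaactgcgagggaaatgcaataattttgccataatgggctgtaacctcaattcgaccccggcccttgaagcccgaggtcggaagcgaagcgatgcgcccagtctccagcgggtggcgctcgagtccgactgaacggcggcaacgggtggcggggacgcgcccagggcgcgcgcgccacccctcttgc
Hoxa6: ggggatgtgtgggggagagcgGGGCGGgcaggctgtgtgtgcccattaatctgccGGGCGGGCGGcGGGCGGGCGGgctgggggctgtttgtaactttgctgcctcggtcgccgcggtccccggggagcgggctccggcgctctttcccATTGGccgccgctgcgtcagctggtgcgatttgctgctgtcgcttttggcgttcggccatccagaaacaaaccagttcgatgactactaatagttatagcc
Hoxa10: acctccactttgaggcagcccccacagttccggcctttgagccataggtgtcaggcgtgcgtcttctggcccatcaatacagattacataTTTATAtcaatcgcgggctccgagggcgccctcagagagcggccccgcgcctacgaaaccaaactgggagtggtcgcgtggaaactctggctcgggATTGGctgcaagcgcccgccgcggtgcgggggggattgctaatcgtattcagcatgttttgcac
Hoxd8: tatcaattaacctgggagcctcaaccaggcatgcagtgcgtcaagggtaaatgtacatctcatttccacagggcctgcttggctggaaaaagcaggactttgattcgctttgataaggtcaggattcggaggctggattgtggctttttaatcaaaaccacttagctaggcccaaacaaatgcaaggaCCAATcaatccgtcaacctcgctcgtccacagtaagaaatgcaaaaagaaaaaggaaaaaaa

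Each of the 4 windows held 1 CCAAT box, the Hoxa10 window also held a TATA box, and the Hoxa6 window held 5 overlapping or separate GC boxes. The other Hoxa10 entry held neither a CCAAT nor a TATA box. Among the other Hoxa genes that fell, Hoxa3 and Hoxa7 held no CCAAT box and Hoxa2 held 4. The ratio of observed to expected CpG was 1.11 at Hoxa5, 0.933 at Hoxa6, 0.913 at Hoxa10 and 0.487 at Hoxd8, against a median of 0.374 over 32841 promoter windows. In windows not shown it was 0.466 at Hoxa2, 0.687 at Hoxa3, 0.386 at Hoxa7 and 0.458 at the other Hoxa10 entry. The Hoxa genes that fell thus lay on both sides of Hoxd8. RefSeq promoter entries matched 22 members by symbol, among them 12 of the 22 tested and 6 of the 10 silent members. In the 13 windows of the tested members, 8 held a CCAAT box, 4 a GC box and 2 a TATA box, while the shares over all promoters were 33.9%, 32.7% and 12.4%. The 7 windows of the silent members held a CCAAT box in 4 cases and a GC box in 3. The SOX core AACAAT, the sequence that SOX proteins bind, was in none of these 20 windows, and it was in 9.43% of all promoters. The paired HOX and PBX motif TGATTNAT was in 1 tested and 1 silent window and in 2.83% of all promoters. The median CpG ratio was 0.49 for tested and 0.759 for silent members, and these counts are descriptions of letters in short windows.

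The question of which genes the knockouts share was asked of the 22 tested members by comparing each knockout with the WT libraries. In Xap5 KO, 2 members rose and 13 fell, which is 68.2% of the tested members, where 45.5% of all tested genes were called. In Nono KO, 5 rose and 8 fell (59.1%, against 48.6% of all tested genes), and in Sox5 KO, 4 rose and 9 fell (59.1%, against 60.9%). Calls were made with edgeR's quasi-likelihood test at an adjusted p under 0.05 over all 13332 tested genes. The Sox5 KO share was below the background and the Nono KO share little above it, so the number of changed members alone does not set the Hox genes apart there. In bulk RNA, fewer cells expressing a gene and less RNA per cell cannot be told apart. The direction was uneven: the lower calls were 13, 8 and 9 of 22, where 22.3%, 25.1% and 30.3% of all tested genes were called lower and 23.2%, 23.5% and 30.6% higher. Changes of at least 2-fold were called for 9 members in each knockout (1 higher and 8 lower, 3 and 6, and 1 and 8), where 10.3%, 11.2% and 17.2% of all tested genes passed that rule. By direction, 5.67%, 6.5% and 8.3% of all tested genes passed it as higher and 4.61%, 4.68% and 8.87% as lower. For Xap5 KO, Nono KO and Sox5 KO in turn, the tested members had median log2 fold changes of -0.64, -0.02 and -0.51, beside 0.00, -0.02 and -0.01 for all tested genes. When each chromosome's median was set to 0, the Nono KO calls were 3 higher and 8 lower. With library totals in place of TMM the median over all tested genes was -0.18 (Nono KO) and -0.12 (Sox5 KO), against the -0.02 and -0.01 above, and fold changes here are relative to the TMM scale. Members that passed the filter through 1 group alone were selected as high there, Hoxa10 through WT and Hoxb5 through Nono KO. Hoxa10 thus had to be lower in the knockouts. The counts describe the tested members and not all 39.

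Over the 3 comparisons, which share the WT libraries, 6 members were lower in every knockout, and all of them were in the Hoxa cluster: Hoxa2, Hoxa3, Hoxa5, Hoxa6, Hoxa7 and Hoxa10. The place of Hoxa10 in this count was set by its passing the filter through WT alone. Of all tested genes, 7.61% were lower in all 3 comparisons and 8.33% higher in all 3. Because the WT libraries enter each comparison, a high or low WT value moves all 3 the same way, and no test of this agreement was made. Hoxb3, Hoxb6 and Hoxb9 were lower in 2 knockouts, and Hoxb5 and Hoxd10 in 1. Hoxc5 and Hoxd8 were higher in 2 knockouts. Hoxc4, Hoxc6, Hoxc9 and Hoxd9 were higher in one knockout and lower in another. Hoxa4, Hoxc8, Hoxd3 and Hoxd4 were called in none.

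**Figure D2:**
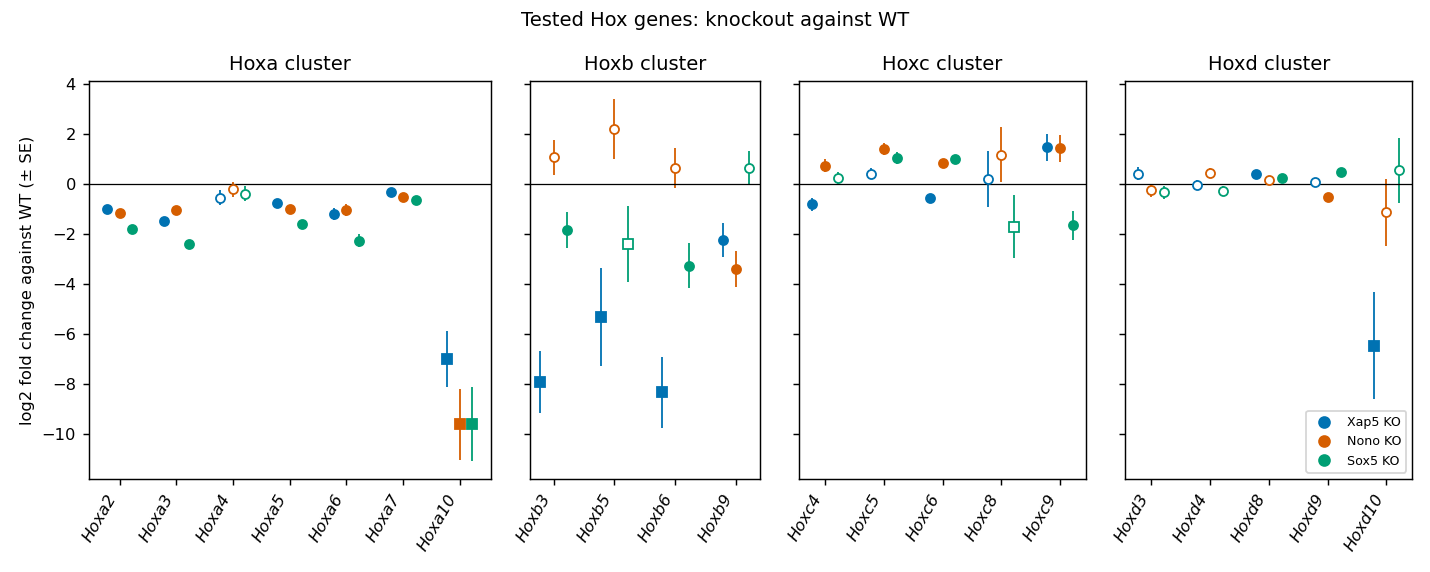
Log2 fold change against WT (vertical axis, bars are SE) of tested members along each cluster for Xap5 KO (blue), Nono KO (orange) and Sox5 KO (green). Filled symbols were called at an adjusted p under 0.05, and squares are fitted values against a group at the floor, which are no bound on the fold. From Hoxa2 to Hoxa10 every called symbol lies below 0, while the Hoxc panel holds called symbols on both sides.

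In the Hoxa cluster the genes from Hoxa2 to Hoxa7, with the exception of Hoxa4, fell in all 3 knockouts, and Hoxa10 went to the floor. Hoxa3, which is needed for the thymus and parathyroid, stood at 66.2 and 64.0 CPM in WT, 27.97, 22.5 and 19.7 CPM in Xap5 KO, 33.0, 27.8 and 33.9 CPM in Nono KO and 13.6, 9.86 and 13.7 CPM in Sox5 KO. Every WT library was above every knockout library, and the Sox5 KO libraries were the lowest. The log2 fold changes of Hoxa3 were -1.48 (SE 0.143, adjusted p = 3.02e-07) in Xap5 KO, -1.04 (SE 0.142, adjusted p = 1.21e-05) in Nono KO and -2.39 (SE 0.148, adjusted p = 4.96e-10) in Sox5 KO. Hoxa2, which sets the identity of the second pharyngeal arch, stood at 21.9 and 20.6 CPM in WT, 11.0, 11.1 and 9.92 CPM in Xap5 KO, 9.48, 10.5 and 8.95 CPM in Nono KO and 5.88, 6.78 and 5.77 CPM in Sox5 KO. The groups of Hoxa2 did not overlap WT, and its log2 fold changes were -0.99 (SE 0.138, adjusted p = 4.53e-06), -1.14 (SE 0.138, adjusted p = 6.15e-07) and -1.79 (SE 0.141, adjusted p = 5.73e-10) in the same order of knockouts. Hoxa5 stood at 39.2 and 40.3 CPM in WT, 22.03, 24.4 and 25.1 CPM in Xap5 KO, 17.2, 21.8 and 20.7 CPM in Nono KO and 13.5, 11.2 and 15.1 CPM in Sox5 KO. Its log2 fold changes were -0.74 (SE 0.120, adjusted p = 3.3e-05), -1.0 (SE 0.120, adjusted p = 5.63e-07) and -1.58 (SE 0.123, adjusted p = 4.24e-10), again with no overlap between WT and any knockout. Hoxa6, a thoracic gene, stood at 11.6 and 11.6 CPM in WT, 5.97, 6.09 and 3.19 CPM in Xap5 KO, 5.82, 5.28 and 5.99 CPM in Nono KO and 1.79, 2.61 and 2.87 CPM in Sox5 KO. The third Xap5 KO library of Hoxa6 lay well under the other two, and all knockout libraries lay under WT, with log2 fold changes of -1.19 (SE 0.238, adjusted p = 0.000341), -1.02 (SE 0.238, adjusted p = 0.00119) and -2.26 (SE 0.250, adjusted p = 9.5e-08).

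Hoxa10, which patterns the lumbar spine and the uterus, had 119 and 99 counts in the WT libraries. It had 2, 0 and 0 counts in Xap5 KO and 0 in all 3 libraries of Nono KO and of Sox5 KO. Against the floor of 3 counts per library, Hoxa10 was at least 34.3-fold lower with Xap5 knocked out, at least 33.9-fold lower without Nono and at least 26.9-fold lower without Sox5, with adjusted p = 7.29e-05, 2.34e-05 and 2.19e-05. Because Hoxa10 passed the filter through the WT libraries alone, its direction was set by that selection, and these p-values are no separate support. Hoxa10 was the one member present at over 10 counts in both WT libraries and at the floor in every knockout library. The neighbouring Hoxa9, described above, was too low to test. Hoxa7 fell by less than 2-fold, from 52.6 ± 6.43 CPM in WT (mean ± SD, n = 2) to 41.8 ± 1.81 CPM in Xap5 KO, 37.0 ± 1.79 CPM in Nono KO and 33.8 ± 1.96 CPM in Sox5 KO (n = 3 each). The Hoxa7 call in Xap5 KO, -0.33 (SE 0.0897, adjusted p = 0.00478), was lost without WT replicate 2 (-0.21, adjusted p = 0.162) and with chromosome medians set to 0 (-0.07, adjusted p = 0.599).

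Hoxa4 lies between fallen neighbours but was low, at 3.19 ± 0.653 CPM in WT, 2.20 ± 0.439 CPM in Xap5 KO, 2.77 ± 0.430 CPM in Nono KO and 2.45 ± 0.522 CPM in Sox5 KO, and its values of -0.53, -0.20 and -0.38 did not pass the test. In Sox5 KO Hoxa4 was called lower (-0.79, adjusted p = 0.0299) when fold changes were adjusted for gene length and GC content. Exons of Hoxa3, Hoxa4 and Hoxa7 overlap antisense genes, and exons of Hoxa2 and Hoxa3 overlap a gene on the same strand. None of those genes has a row in the table, so their reads cannot be told apart here.

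**Figure D3:**
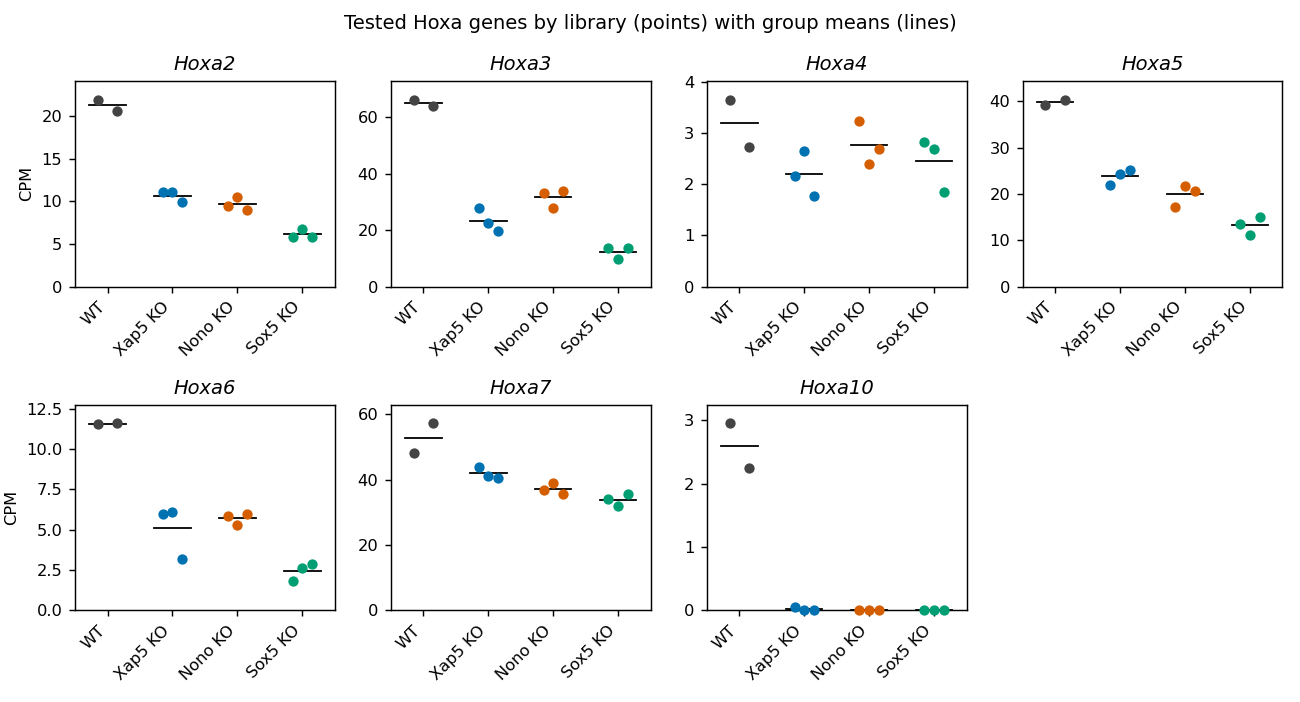
CPM of 7 tested Hoxa genes (1 panel each, vertical axes from 0) in each library (points) with group means (lines). For Hoxa2, Hoxa3, Hoxa5, Hoxa6, Hoxa7 and Hoxa10 both WT points lie above every knockout point, while for Hoxa4 the WT points overlap those of Nono KO and Sox5 KO.

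The Hoxb cluster was low in every group and nearly absent from Xap5 KO. Hoxb3, Hoxb5 and Hoxb6 had 0 counts in all 3 Xap5 KO libraries. For Hoxb3, a hindbrain and neck gene, WT had 23 and 46 counts, Nono KO 82, 45 and 73 and Sox5 KO 4, 7 and 10. Hoxb6, a thoracic gene, had 21 and 71 counts in WT, 60, 107 and 34 in Nono KO and 0, 6 and 4 in Sox5 KO. Hoxb5 had 2 and 9 counts in WT, 29, 31 and 12 in Nono KO and 0, 0 and 2 in Sox5 KO. The WT libraries differed widely for all 3 genes, with replicate 2 the higher. In Xap5 KO Hoxb3 was at least 10.6-fold lower than in WT (adjusted p = 3.08e-05), Hoxb6 at least 14.1-fold lower (adjusted p = 8.84e-05) and Hoxb5 at least 1.67-fold lower (adjusted p = 0.0336). These bounds rested in part on WT replicate 2, without which they were 7.52-fold for Hoxb3 and 6.87-fold for Hoxb6, and WT itself was under the floor for Hoxb5. Without WT replicate 1 they were 13.8-fold for Hoxb3, 21.2-fold for Hoxb6 and 2.69-fold for Hoxb5. The Hoxb5 call was lost without WT replicate 2 (adjusted p = 0.221) and without any one of the Xap5 KO libraries (adjusted p = 0.0621 to 0.0688).

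In Sox5 KO, Hoxb3 and Hoxb6 fell, with log2 fold changes of -1.82 (SE 0.727, adjusted p = 0.0368) and -3.26 (SE 0.912, adjusted p = 0.00449). Without WT replicate 2 neither call held (Hoxb3 -1.33, adjusted p = 0.245, Hoxb6 -2.23, adjusted p = 0.107). The Hoxb3 call was also lost without Sox5 KO replicate 1 (-1.53, adjusted p = 0.117) or 2 (-1.86, adjusted p = 0.0756) and without Nono KO replicate 1 or 3 (adjusted p = 0.0549 and 0.0509). Hoxb5 in Sox5 KO was at 0 to 2 counts and was not called (adjusted p = 0.183). In Nono KO none of the 3 was called, with values of 1.08 for Hoxb3, 2.20 for Hoxb5 and 0.65 for Hoxb6. Antisense exons cover 52.9% of the Hoxb3 exons, so part of its counts may belong to that antisense gene.

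Hoxb9, a gene of the thoracic ribs, was low in Xap5 KO and Nono KO but not in Sox5 KO. It stood at 1.51 and 1.88 CPM in WT, 0.566, 0.0974 and 0.412 CPM in Xap5 KO, 0.296, 0.170 and 0 CPM in Nono KO and 2.97, 2.41 and 2.62 CPM in Sox5 KO. The Xap5 KO and Nono KO libraries were all under WT, and the Sox5 KO libraries were all above it. The log2 fold changes were -2.24 (SE 0.689, adjusted p = 0.0114) in Xap5 KO, -3.40 (SE 0.740, adjusted p = 0.00066) in Nono KO and, not called, 0.65 (SE 0.665, adjusted p = 0.418) in Sox5 KO. Without WT replicate 2 the Xap5 KO call was lost (-2.08, adjusted p = 0.0643). The direct contrasts put Hoxb9 lower than in Sox5 KO both in Xap5 KO (-2.89, SE 0.654, adjusted p = 0.000631) and in Nono KO (-4.04, SE 0.711, adjusted p = 4.13e-05).

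Of the 5 tested Hoxc members, 4 were called higher in Nono KO, where 23.5% of all tested genes were. Apart from a minimum of 2-fold, only the Hoxc5 and Hoxc6 calls there held in every setting tried. Hoxc5 stood at 2.33 and 2.56 CPM in WT, 3.11, 3.82 and 2.96 CPM in Xap5 KO, 7.21, 6.92 and 5.27 CPM in Nono KO and 5.72, 4.54 and 4.91 CPM in Sox5 KO. Its log2 fold changes were 1.40 (SE 0.236, adjusted p = 4.4e-05) in Nono KO, 1.05 (SE 0.236, adjusted p = 0.000629) in Sox5 KO and, not called, 0.43 (SE 0.234, adjusted p = 0.143) in Xap5 KO, and no knockout library overlapped WT. Hoxc6, a thoracic gene and the highest of the cluster, stood at 8.38 ± 0.0591 CPM in WT, 5.75 ± 0.705 CPM in Xap5 KO, 14.95 ± 1.60 CPM in Nono KO and 16.7 ± 1.00 CPM in Sox5 KO (SD, n = 2 for WT and 3 for each knockout). It fell in Xap5 KO, -0.54 (SE 0.150, adjusted p = 0.00532), and rose in Nono KO, 0.83 (SE 0.150, adjusted p = 8.95e-05), and Sox5 KO, 0.99 (SE 0.151, adjusted p = 7.43e-06). The direct contrasts placed Hoxc6 lower in Xap5 KO than in Nono KO (-1.38, SE 0.135, adjusted p = 2.59e-08) and than in Sox5 KO (-1.54, SE 0.136, adjusted p = 3.29e-09). Hoxc4 stood at 3.48 ± 1.07 CPM in WT, 1.99 ± 0.182 CPM in Xap5 KO, 5.85 ± 0.763 CPM in Nono KO and 4.09 ± 0.639 CPM in Sox5 KO. Its log2 fold changes were -0.80 (SE 0.255, adjusted p = 0.0137) in Xap5 KO, 0.75 (SE 0.253, adjusted p = 0.0184) in Nono KO and, not called, 0.23 in Sox5 KO. The Hoxc4 call in Xap5 KO was lost without WT replicate 1 (-0.46, adjusted p = 0.263) and in a fit of those 2 groups alone (-0.81, adjusted p = 0.0526). In Nono KO it was lost without WT replicate 2 (0.47, adjusted p = 0.239), without Nono KO replicate 3 (0.64, adjusted p = 0.0659), on library totals (0.58, adjusted p = 0.058) and with chromosome medians set to 0 (0.61, adjusted p = 0.0539).

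Hoxc9, which sets thoracic motor neuron identity, was the member with called changes of at least 2-fold in opposite directions. It had 18 and 37 counts in WT, 75, 65 and 73 in Xap5 KO, 84, 77 and 48 in Nono KO and 11, 5 and 3 in Sox5 KO. All Xap5 KO and Nono KO libraries were above WT and all Sox5 KO libraries below it. The log2 fold changes were 1.47 (SE 0.540, adjusted p = 0.0308), 1.44 (SE 0.539, adjusted p = 0.0317) and -1.65 (SE 0.587, adjusted p = 0.0194). Each of these calls against WT depended on single libraries. Without WT replicate 1 the Xap5 KO value was 1.08, adjusted p = 0.205 and the Nono KO value 1.07, adjusted p = 0.203, and without WT replicate 2 the Sox5 KO value was -1.13, adjusted p = 0.191. The calls were also lost without Xap5 KO replicate 1 (1.41, adjusted p = 0.0684) or 3 (1.43, adjusted p = 0.0595), Nono KO replicate 1 (1.31, adjusted p = 0.0871) or 2 (1.39, adjusted p = 0.0668), and Sox5 KO replicate 2 (-1.55, adjusted p = 0.0555) or 3 (-1.32, adjusted p = 0.0777). With chromosome medians set to 0 the Nono KO value was 1.31, adjusted p = 0.0536. The contrasts between knockouts, which set no library against WT, were larger: compared with Sox5 KO, Hoxc9 was higher both in Xap5 KO (3.13, SE 0.538, adjusted p = 3.37e-05) and in Nono KO (3.10, SE 0.538, adjusted p = 3.54e-05), and both of these calls held in every setting tried. Hoxc8 stayed between 0 and 20 counts and was not called against WT. A stretch of Hoxc5 exons is shared with Hoxc10, which was at 0 in every library.

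In the Hoxd cluster, Hoxd8 stood at 34.7 and 37.5 CPM in WT, 50.0, 44.2 and 48.0 CPM in Xap5 KO, 43.7, 40.5 and 37.0 CPM in Nono KO and 46.0, 38.2 and 45.3 CPM in Sox5 KO. Its log2 fold changes were 0.39 (SE 0.0979, adjusted p = 0.00242) in Xap5 KO, 0.16 (SE 0.0976, adjusted p = 0.181) in Nono KO, which was not called, and 0.26 (SE 0.0981, adjusted p = 0.028) in Sox5 KO. The Xap5 KO call was lost without WT replicate 1 (0.33, adjusted p = 0.0561). In Sox5 KO it was lost without WT replicate 1 (0.19, adjusted p = 0.217) or 2 (0.31, adjusted p = 0.052), without Sox5 KO replicate 1 (0.21, adjusted p = 0.105) or 3 (0.22, adjusted p = 0.0914), and under 3 other scalings, the smallest value being 0.03, adjusted p = 0.814 after adjustment for length and GC content. Hoxd9, a gene of the lumbosacral region and upper limb, stood at 19.5 ± 1.86 CPM in WT, 20.8 ± 0.617 CPM in Xap5 KO, 13.7 ± 0.430 CPM in Nono KO and 27.4 ± 0.677 CPM in Sox5 KO. It fell in Nono KO, -0.51 (SE 0.104, adjusted p = 0.000364), and rose in Sox5 KO, 0.49 (SE 0.105, adjusted p = 0.000383), and the contrast of those 2 knockouts was -1.0 (SE 0.0945, adjusted p = 8.23e-09). In Xap5 KO the value of 0.09 did not pass the test.

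Hoxd10, active in the lumbosacral cord and hindlimb, had 18 and 6 counts in WT, 0 in all Xap5 KO libraries, 0, 16 and 0 in Nono KO and 19, 13 and 8 in Sox5 KO. In Xap5 KO it was lower than in WT by at least 3.84-fold (adjusted p = 0.0199), a call that was lost without WT replicate 1 (at least 1.80-fold, adjusted p = 0.12). Without WT replicate 2 the bound for Hoxd10 was 5.89-fold. The Nono KO value rested on replicate 2, the one Nono KO library with any counts, and without it Hoxd10 was called lower than in WT there too (adjusted p = 0.0237). Hoxd3 and Hoxd4, genes of the neck vertebrae, were not called in any knockout against WT. Hoxd3 stood at 4.19 ± 1.19 CPM in WT, 5.65 ± 1.38 CPM in Xap5 KO, 3.54 ± 0.955 CPM in Nono KO and 3.35 ± 0.0366 CPM in Sox5 KO, and Hoxd4 at 6.66 ± 0.972 CPM in WT, 6.57 ± 1.01 CPM in Xap5 KO, 9.06 ± 1.55 CPM in Nono KO and 5.47 ± 0.348 CPM in Sox5 KO. Hoxd4 was called higher in Nono KO without Nono KO replicate 3 (0.57, adjusted p = 0.0239) and lower in Sox5 KO after adjustment for length and GC content (-0.51, adjusted p = 0.0326). Their exons overlap each other and the readthrough gene Gm28230, which was also not called in any knockout, so the split of counts among the 3 is uncertain.

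Summed over members, the clusters moved in different directions. The Hoxa total was 199 ± 3.67 CPM in WT, 111 ± 6.82 CPM in Xap5 KO, 114 ± 1.05 CPM in Nono KO and 73.3 ± 5.04 CPM in Sox5 KO (SD, n = 2 for WT and 3 for each knockout), so that the knockouts held 55.7%, 57.2% and 36.8% of the WT level. The Hoxb total was 3.96 ± 1.11 CPM in WT, 0.359 ± 0.239 CPM in Xap5 KO, 4.404 ± 0.849 CPM in Nono KO and 3.08 ± 0.206 CPM in Sox5 KO. All 3 Xap5 KO libraries lay below both WT libraries, at 9.06% of WT. The Hoxc total was 15.1 ± 0.769 CPM in WT, 13.04 ± 1.05 CPM in Xap5 KO, 29.5 ± 1.13 CPM in Nono KO and 26.2 ± 2.11 CPM in Sox5 KO, the last 2 at 195% and 173% of WT with no overlap. The Hoxd total was 66.7 ± 3.86 CPM in WT, 80.4 ± 1.33 CPM in Xap5 KO, 66.9 ± 4.84 CPM in Nono KO and 79.8 ± 4.00 CPM in Sox5 KO. No test was made on these sums, which are governed by their highest members. The Hoxa cluster supplied 69.9% ± 0.642 of the summed Hox CPM in WT and 40.2% ± 0.661 in Sox5 KO, where the Hoxd share was 43.8% ± 0.637 against 23.4% ± 0.708 in WT. By position, anterior members summed to 94.1 ± 1.02 CPM in WT and 43.6 ± 4.28, 53.8 ± 3.36 and 24.9 ± 1.78 CPM in the Xap5, Nono and Sox5 knockouts. Posterior members summed to 25.0 ± 1.83 CPM in WT and 23.0 ± 0.533, 15.9 ± 0.872 and 30.8 ± 0.699 CPM in the same order, with Hoxd9 the largest part.

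**Figure D4:**
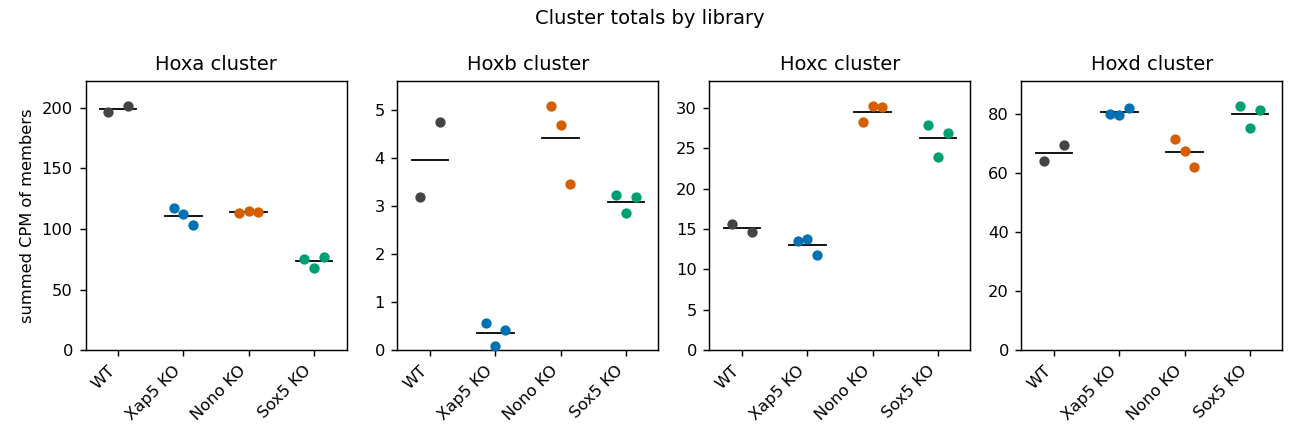
Summed CPM of the members of each Hox cluster (1 panel each, vertical axes from 0 and of different height) in each library (points) with group means (lines). Every knockout lies below WT for Hoxa, Xap5 KO lies near 0 for Hoxb, and Nono KO and Sox5 KO lie above WT for Hoxc.

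The knockouts also differed from one another. Between Xap5 KO and Nono KO, 3 members were higher and 10 lower in Xap5 KO (59.1% of 22, against 53% of all tested genes). Between Xap5 KO and Sox5 KO, 7 were higher and 8 lower in Xap5 KO (68.2%, against 61.6%), and between Nono KO and Sox5 KO, 11 were higher and 2 lower in Nono KO (59.1%, against 63.5%). Of all tested genes, 27.1% were higher and 25.9% lower in the first of these contrasts, 31.1% and 30.4% in the second, and 30.9% and 32.6% in the last. At least 2-fold were 6, 8 and 9 members, against 11.1%, 15% and 17% of all tested genes. On library totals alone, where the median over all tested genes in that contrast was 0.12 against 0.01 with TMM, the first split was 5 higher and 8 lower, and after adjustment for length and GC content the second was 10 higher and 7 lower. Hoxa2, Hoxa3, Hoxa5 and Hoxa6 were lower in Sox5 KO than in both other knockouts. The contrast of Nono KO against Sox5 KO was 0.65 (SE 0.132, adjusted p = 0.0002) for Hoxa2, 1.35 (SE 0.138, adjusted p = 2.31e-07) for Hoxa3, 0.58 (SE 0.114, adjusted p = 0.000138) for Hoxa5 and 1.23 (SE 0.234, adjusted p = 9.66e-05) for Hoxa6. The contrast of Xap5 KO against Sox5 KO was 0.80, 0.91, 0.84 and 1.07 for the same genes, and the libraries of each pair of groups did not overlap. Hoxb3, Hoxb5 and Hoxb6 were at least 22.6-, 7.92- and 22.1-fold lower in Xap5 KO than in Nono KO. As Hoxb5 passed the filter through Nono KO alone, that selection favoured its difference here. Hoxc4 and Hoxc5 were lower in Xap5 KO than in Nono KO, with -1.55 (SE 0.231, adjusted p = 8.46e-06) and -0.97 (SE 0.202, adjusted p = 0.000378).

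Genes around the clusters were examined for changes of the same size, using the 10 nearest tested genes on each side (19 in all for Hoxc). Around Hoxa the 20 neighbours had a median log2 fold change of -0.25, -0.26 and -0.63 for Xap5 KO, Nono KO and Sox5 KO in turn. The medians of the 8 tested Hoxa members were -0.87, -1.01 and -1.69, and those of all 621 tested genes of chromosome 6 were -0.25, -0.18 and -0.34. Chromosome 6 as a whole thus stood below 0 in each knockout, and its part in the lower Hoxa values was not tested. With each chromosome's median set to 0, the log2 fold changes for the 3 knockouts in the same order were -0.73, -0.93 and -1.44 for Hoxa2, -1.22, -0.84 and -2.04 for Hoxa3, -0.48, -0.79 and -1.23 for Hoxa5 and -0.92, -0.81 and -1.91 for Hoxa6. Hoxa7 lost its call in Xap5 KO (-0.07, adjusted p = 0.599) and was -0.30 and -0.29 in the other two, both called. Under that setting Hoxa2, Hoxa3, Hoxa5 and Hoxa6 were still called lower in all 3 knockouts, as was Hoxa10, which passed the filter through WT alone. Around Hoxb the neighbours had medians of 0.10, 0.17 and 0.40, while the 4 tested Hoxb members had fitted medians of -6.62, 0.86 and -2.12, the first resting on genes at 0. Around Hoxc the neighbours had medians of -0.06, 0.03 and 0.06, and the 5 tested members 0.20, 1.19 and 0.23. Around Hoxd they were 0.10, -0.02 and -0.15, with members at 0.09, -0.25 and 0.26. In the same order of knockouts, all tested genes of chromosome 11 (Hoxb) had medians of 0.01, 0.02 and 0.15. Those of chromosome 15 (Hoxc) had 0.04, 0.16 and 0.17, and those of chromosome 2 (Hoxd) 0.13, 0.01 and 0.13. The part of these chromosome medians in the member values was not tested. The homeobox genes at the cluster edges were silent or nearly so: Evx1, next to Hoxa13, was at 0 in every library, and Evx2, next to Hoxd13, had 3 counts in Nono KO replicate 1 and 0 elsewhere.

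**Figure D5:**
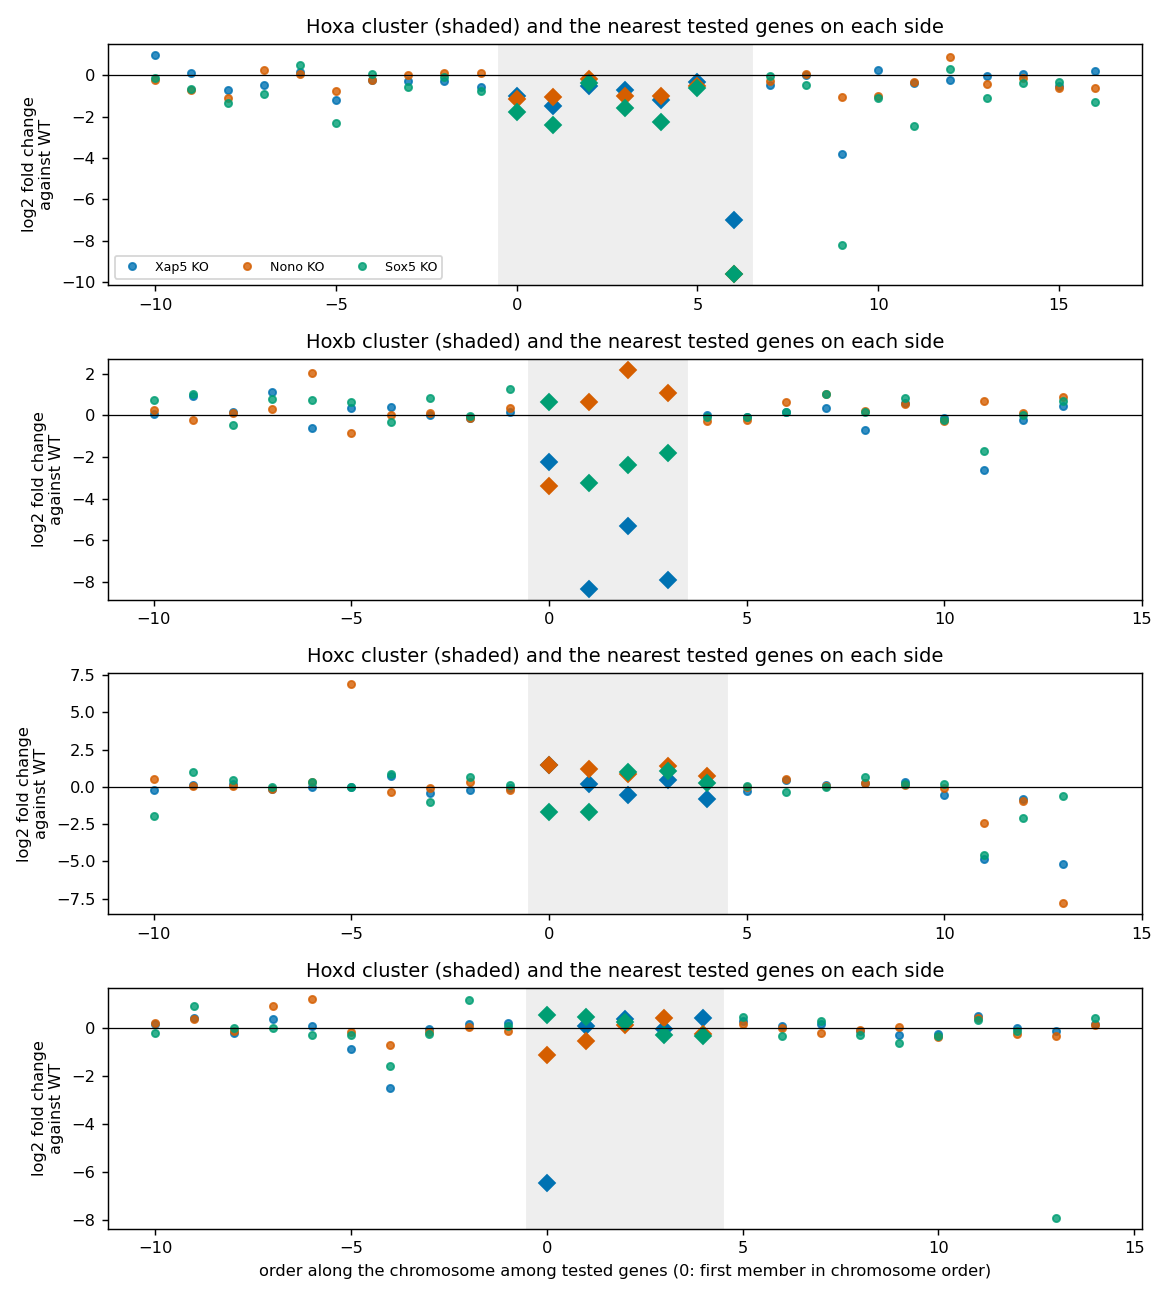
Log2 fold change against WT (vertical axes) of tested Hox members (diamonds, shaded) and of the nearest tested genes on each side (circles) in chromosome order, for Xap5 KO (blue), Nono KO (orange) and Sox5 KO (green). The neighbours with the lowest fitted values include Creb5 near Hoxa and Ppp1r1a near Hoxc.

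The partners and regulators of Hox genes were read from the same fit. Among 9 genes of the PBX, MEIS and PKNOX families, which encode DNA-binding cofactors of HOX proteins, 2 rose and 2 fell in Xap5 KO, none rose and 7 fell in Nono KO, and 2 rose and 2 fell in Sox5 KO. The median log2 fold changes of these cofactors were -0.10, -0.44 and 0.02. Those higher were Pknox1 and Pbx3 in Xap5 KO and Pbx3 and Meis3 in Sox5 KO. Without WT replicate 2 the 7 calls in Nono KO became 4. Meis2 fell in each knockout, with log2 fold changes of -0.86, -0.84 and -0.70. Pknox2, which was low, fell in Nono KO (-3.52, SE 0.798, adjusted p = 0.000954), a call just missed without WT replicate 2 (-2.50, adjusted p = 0.0501).

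Of 31 Polycomb genes, whose products keep Hox genes repressed, the calls were 5 higher and 8 lower in Xap5 KO, 1 and 15 in Nono KO, and 5 and 13 in Sox5 KO, with medians of -0.11, -0.22 and -0.17. Those higher were Yaf2, Pcgf5, Phc2, Rbbp7 and Bcor in Xap5 KO, Cbx6 in Nono KO, and Yaf2, Pcgf5, Pcgf6, Eed and Rbbp7 in Sox5 KO. Without WT replicate 2 the 13 Polycomb calls in Xap5 KO became 7. Phf19, which helps bring the complex to chromatin, had 54 and 29 counts in WT, 0 in Xap5 KO, 8, 2 and 2 in Nono KO and 91, 81 and 78 in Sox5 KO. In Xap5 KO Phf19 was lower by at least 13.2-fold (adjusted p = 1.15e-05), a bound of 8.68-fold without WT replicate 1, and fell in Nono KO (-3.26, SE 0.727, adjusted p = 0.00101). In Sox5 KO Rybp fell (-1.02, SE 0.0921, adjusted p = 4.77e-09) and Pcgf5 rose (1.01, SE 0.122, adjusted p = 3.34e-07), both members of Polycomb repressive complex 1. Of 15 tested Trithorax genes, which maintain Hox expression, the calls were 3 higher and 4 lower in Xap5 KO, 1 and 10 in Nono KO, and 2 and 10 in Sox5 KO, with medians of 0.06, -0.29 and -0.37. Dpy30, a subunit of the methyltransferase complexes, was higher in all 3 knockouts, Wdr5 in Xap5 KO and Sox5 KO, and Psip1 in Xap5 KO. Without WT replicate 2 the 7 Trithorax calls in Xap5 KO became 3. The histone methyltransferase genes Kmt2d, Kmt2c and Ash1l fell in Sox5 KO, with log2 fold changes of -1.66 (SE 0.0740, adjusted p = 6.74e-14), -1.53 (SE 0.0791, adjusted p = 6.47e-13) and -1.27 (SE 0.0677, adjusted p = 1.02e-12). In Nono KO the values were -0.28 for Kmt2d and -0.88 for Kmt2c, both called, and -0.00 for Ash1l, not called. The shares called in the cofactor, Polycomb and Trithorax lists are to be read against the 45.5%, 48.6% and 60.9% of all tested genes. By direction, 23.2%, 23.5% and 30.6% of all tested genes were called higher and 22.3%, 25.1% and 30.3% lower.

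Of 15 tested genes of retinoic acid signalling, the pathway that opens the anterior ends of the clusters in embryos, the calls were 2 higher and 3 lower in Xap5 KO, 5 and 3 in Nono KO, and 2 and 8 in Sox5 KO, with medians of -0.54, 0.09 and -0.42. The shares called were 33.3%, 53.3% and 66.7%, beside 45.5%, 48.6% and 60.9% of all tested genes. By direction, 23.2%, 23.5% and 30.6% of all tested genes were higher and 22.3%, 25.1% and 30.3% lower. Crabp1, Crabp2 and Cyp26b1 were higher in Nono KO, and Rarg was lower in all 3 knockouts. Without WT replicate 1 the 8 calls in Nono KO became 5. Crabp1, a binding protein for retinoic acid, stood at 25.2 and 23.0 CPM in WT, 6.67, 4.55 and 6.41 in Xap5 KO and 128, 139 and 107 in Nono KO, and had 0 counts in Sox5 KO. It fell in Xap5 KO (-2.04, SE 0.151, adjusted p = 2.19e-07), rose in Nono KO (2.37, SE 0.152, adjusted p = 3.9e-08) and was at least 249.6-fold lower in Sox5 KO. Aldh1a1, which makes retinoic acid, rose in all 3 knockouts, from 0.595 and 0.817 CPM in WT to 4.74, 4.28 and 1.11 in Xap5 KO, 20.8, 19.99 and 18.1 in Nono KO and 16.4, 15.1 and 16.3 in Sox5 KO. In Xap5 KO, where replicate 3 was low, the log2 fold change of Aldh1a1 was 2.25 (SE 0.574, adjusted p = 0.0123), and the call was lost without WT replicate 1 (adjusted p = 0.0983) or 2 (adjusted p = 0.067). The related Aldh1a3 had 15 and 23 counts in WT and 0 in Sox5 KO, at least 4.62-fold lower. Aldh1a3 passed the filter through WT alone, so its lower direction was set by that selection and is no separate support. Of 7 tested genes upstream of trunk and hindbrain Hox genes, the calls were 0 higher and 5 lower in Xap5 KO, 0 and 4 in Nono KO, and 1 and 2 in Sox5 KO. These were 71.4%, 57.1% and 42.9% of the 7, to be read against the same shares of all tested genes. Without WT replicate 1 the 5 calls in Xap5 KO became 3, and with chromosome medians set to 0 the calls in Xap5 KO and in Nono KO became 2 each. Gata6 fell in each knockout, with -0.75, -0.77 and -0.78. Egr2 was called lower in each, with -0.44, -0.43 and -0.46. Without WT replicate 1 its values were -0.23, -0.20 and -0.25 and none was called, nor with chromosome medians set to 0. The Xap5 KO and Nono KO calls of Egr2 were also lost under the DESeq2 Wald test (adjusted p = 0.0584 and 0.077). They were lost too without robust dispersions and with the replicate number as a block. The Sox5 KO call was lost without Sox5 KO replicate 1 (adjusted p = 0.0968). Meox1, the 1 tested gene of 10 in the list of ParaHox and cluster-edge homeobox genes, was not called in any knockout.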

How the data were processed

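RNA was measured in 11 libraries of NIH/3T3 cells, grouped by the genotype in the labels. The authors deposited 1 table of estimated counts per gene, taken here as rounded by them, since the value 1 occurred 857 times, 2 occurred 3302 times, 3 occurred 1767 times and 4 occurred 2121 times; rounding changed nothing. An excess of even values would also arise if read mates were counted separately. The submitters' processing notes name HISAT2 2.1.0, StringTie 1.3.3b, DESeq2 1.12.4 and the build GRCm39 (mm39), and the annotation, the counting rule and the use of strand are not given in the sources used here.

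All comparisons came from 1 fit with edgeR 4.0.16 (R 4.3.3, limma 3.58.1), with 1 mean per group, TMM scaling and a filter of at least 10 counts (total 15), which left 13332 genes. P-values of the quasi-likelihood tests received Benjamini-Hochberg adjustment across all of them, and calls had an adjusted p under 0.05. A group with at most 3 counts in each library was at the floor, and folds against it are lower bounds. Floors cover counting error only and take each count as independent. If read mates were counted separately, the bounds would be smaller than given. Replicates of a group differed by a chi-square per degree of freedom of 9.22 to 32.2, so no library was a copy of another. Exon lengths, overlaps and neighbours came from GENCODE M21 on GRCm38, which matched 21540 of 21684 identifiers and all 39 members. Promoters came from RefSeq. The alternatives were DESeq2 1.42.0 (size factors and Wald test), library totals, other filters, a fit without robust dispersions, fits of 2 groups, a replicate block, a chromosome offset, a minimum of 2-fold, each library left out in turn and, added after seeing the data, an offset for length and GC content. The fit was also run on simulated data in which 200 of 13039 genes were changed 2-fold in Xap5 KO. It recovered 151 of them (75.5%) with 10 false calls. In the real comparison of Xap5 KO with WT 45.5% of tested genes were called, so the simulation does not give the error rate there.

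Members given by library were those called against WT with an absolute log2 fold change of at least 1 in some knockout. Hoxd8, with smaller changes, is also given by library. Other tested members are given by group mean or range. Up to 3 genes are given from each related list, those with the largest called changes. Genes named only in small counts of a list, and the neighbouring genes named in a caption, were chosen after their values were seen. The members and lists were chosen with earlier results of these data known. Some items are not reported here, though counts over members and lists include them.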

Additional observations from a re-analysis of the deposited data

How the results depend on the processing

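Hox calls against WT numbered 11 to 15 for Xap5 KO, 12 to 13 for Nono KO and 9 to 13 for Sox5 KO when each library was left out in turn. Between knockouts they numbered 10 to 13 (Xap5 KO against Nono KO), 14 to 16 (Xap5 KO against Sox5 KO) and 12 to 15 (Nono KO against Sox5 KO). With a minimum of 2-fold the counts were 9 in Xap5 KO against WT, 6 for Xap5 KO against Nono KO and 8 for Xap5 KO against Sox5 KO. That minimum apart, 8 members of Xap5 KO, 11 of Nono KO and 9 of Sox5 KO kept their call against WT under every alternative that gave a value, and Hoxa2, Hoxa3, Hoxa5, Hoxa6 and Hoxa10 were among them in each. For Hoxa10, which passed the filter through WT alone, this is no added support. The Hoxd10 value in Xap5 KO against Nono KO ran from -5.91 to 0 without one library, and was 0 without Nono KO replicate 2, when both groups held no counts. With chromosome medians set to 0, Rybp was at 0.012 and Egr2 at 0.036 in Xap5 KO, neither called. On library totals, the Hoxa sum as a percent of WT was 51.1 in Nono KO and 34.0 in Sox5 KO. On the same scale the Hoxb sum was 71.99 in Sox5 KO and the Hoxc sum 174 in Nono KO, and the Hoxd sum was 116, 89.5 and 110.4 in the Xap5, Nono and Sox5 knockouts. With DESeq2 size factors the Hoxa sum in Nono KO was 57.8. Leaving out libraries gave 56.5 to 58.0 for Hoxa in Nono KO, 92.8 to 139 for Hoxb in Nono KO, 65.0 to 97.1 for Hoxb in Sox5 KO and 116 to 126 for Hoxd in Xap5 KO. The cause of these shifts was not tested.

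The labels number the replicates, and with the replicate number as a block the calls were 15, 13 and 13 against WT and 13 (Xap5 KO against Nono KO), 15 (Xap5 KO against Sox5 KO) and 12 (Nono KO against Sox5 KO). Deviations of same-numbered libraries had a mean correlation of 0.0126 (-0.0226 to 0.0465), so the numbers were not taken as pairs, although 10 of 11 libraries correlated best with one of their own number. Under the block Hoxb5 was not called in Xap5 KO (-5.19, adjusted p = 0.0717).

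With 2 WT libraries, members of few counts, such as Hoxb5, Hoxc8, Hoxc9 and Hoxd10, limit what can be resolved, and a change in the silent members below the floor could not be detected.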
